A study of Homo sapiens with 30 samples.

Results

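HepG2 cells, a line long established from a human liver tumour, received an inhibitor control (IC), an oligonucleotide that serves as control for miRNA inhibitors. Sorafenib at 10 µM or its solvent dimethyl sulfoxide (DMSO) was added 24 h after transfection and the cells were collected after 6 h. Sorafenib blocks several kinases and is used against advanced liver cancer. The members are the 6 libraries that the labels name IC 6 h control and IC 6 h sorafenib (3 of each), out of 30 libraries in the series. All 6 carried the same control oligonucleotide, so none is an untransfected culture, and HepG2 is a single cell line. Another 6 libraries of the same 6 h experiment, from cells transfected with an inhibitor of miR-200c-3p (I200c) and given DMSO or Sorafenib in the same way, share no library with the IC comparison, and their values stand beside those of IC. The labels do not say whether replicates were separate cultures, so the p-values measure only the spread between these samples.

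Messenger RNA was read with QuantSeq 3′ FWD libraries, which count 1 fragment near the 3′ end of a transcript. Total counts were 3940000 to 7200000 in the 6 IC libraries, and 15913 to 16812 genes had a count. Levels are given as CPM, that is reads on a gene per 1000000 reads of its library after TMM scaling. Where a gene had no read, 3 counts were taken as the limit, equal to 0.428 to 0.749 CPM by library, which covers counting error only. Mitochondrial genes held 19.5% to 20.9% of the counts. All 9 hepatocyte markers were tested, and their summed level was 10396 to 12264 CPM with DMSO and 11067 to 12316 CPM with Sorafenib. Of the 7 immune markers 4 were tested; they summed to 189 to 285 CPM with DMSO and 148 to 205 CPM with Sorafenib, mostly from LYZ, with PTPRC and CD3E at 0 in all 6 libraries. HBB, the haemoglobin beta chain counted among them, was at 75.7 CPM in DMSO replicate 3 and 34.4 CPM in Sorafenib replicate 3, against at most 7.53 CPM in the other 4 libraries. The 5 endothelial markers summed to at most 1.18 CPM with DMSO and 1.78 CPM with Sorafenib, with VWF, STAB2 and KDR at 0. The 7 fibroblast and stellate cell markers summed to 49.0 to 65.0 CPM with DMSO and 44.9 to 64.9 CPM with Sorafenib, mostly from ACTA2, with COL1A2, DCN and LUM at 0. The other 2 tested, COL1A1 and PDGFRB, were at low levels and did not overlap between the groups, COL1A1 at 2.60 to 5.49 CPM with DMSO and 1.57 to 2.49 CPM with Sorafenib and PDGFRB at 1.40 to 3.25 CPM and 0 to 1.16 CPM; the median log2 difference of the 3 tested was -0.91 in IC and -1.64 in replicate 3. The part of these markers in the results was not tested.

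Sorafenib acts on receptor tyrosine kinases and on the RAF kinases, which stand between the small GTPase RAS and the kinases MEK and ERK. Active ERK raises the transcription of its own inhibitors, such as the phosphatase DUSP6 and the SPROUTY and SPRED proteins, so these genes serve as a transcript record of the pathway. Metallothioneins are small cysteine-rich proteins that bind zinc and copper, and in liver cells their genes are switched on through metal response elements by the zinc-sensing factor MTF1.

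Replicates 1 and 2 of both IC groups stood apart from replicate 3 in the direction of the other group. The position of a library was the mean log2 level over the 291 genes that Sorafenib changed in I200c, scaled so that the I200c DMSO mean is 0 and the I200c Sorafenib mean is 1. The genes were called on the contrast of the I200c groups, although the IC libraries entered the estimate of the spread. Such a choice favours a wide gap and a narrow spread of the I200c libraries. The 3 IC DMSO libraries stood at 0.357, 0.476 and 0.183 in the order of their replicate numbers. The 3 IC Sorafenib libraries stood at 0.748, 0.680 and 0.911. The I200c libraries stood at -0.008 to 0.005 with DMSO and 0.950 to 1.03 with Sorafenib, so replicate 3 of each IC group was the nearest of its 3 to the matching I200c group, and DMSO replicate 2 was the farthest. Without the metallothioneins the IC values were 0.341, 0.455 and 0.191 with DMSO and 0.731, 0.662 and 0.897 with Sorafenib.

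**Figure D1:**
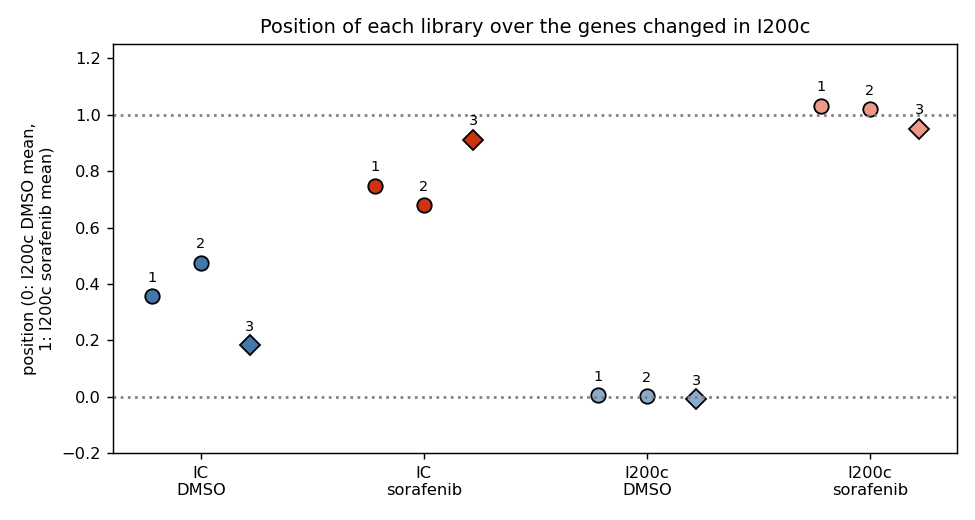
Position of each 6 h library (vertical axis, no unit) by group (horizontal axis), with replicate numbers beside the points and replicate 3 as diamonds. The IC DMSO libraries lie between 0.183 and 0.476 and the IC Sorafenib libraries between 0.680 and 0.911, inside the range set by the I200c groups at 0 and 1.

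DMSO replicate 2 was closer to Sorafenib replicates 1 and 2 than to either other DMSO library. The chi-square per degree of freedom between the counts of 2 libraries, about 1 if only counting error separated them, was 3.67 between DMSO replicate 2 and Sorafenib replicate 2 and 4.04 between DMSO replicate 2 and Sorafenib replicate 1. It was 5.75 between DMSO replicates 1 and 2, 13.2 between DMSO replicates 2 and 3, 14.2 between DMSO replicate 2 and Sorafenib replicate 3, and 4.54 between Sorafenib replicates 1 and 2. No pair was within counting error, so no library was a copy of another.

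Several single genes also had replicates 1 and 2 between the replicate 3 libraries. MT1B, a metallothionein gene, had 0 counts in DMSO replicate 3 and in all 3 I200c DMSO libraries, but stood at 16.2 CPM in DMSO replicate 1 and 36.3 CPM in DMSO replicate 2. On the linear scale, with DMSO replicate 3 at 0% and Sorafenib replicate 3 at 100%, DMSO replicates 1 and 2 were at 26.0% and 58.3% for MT1B and at 34.5% and 54.7% for CYP1A1. Sorafenib replicates 1 and 2 were at 87.2% and 81.3% for MT1B and at 85.8% and 81.2% for CYP1A1. GADD45B gave 21.7%, 47.2%, 87.8% and 80.4% for the same 4 libraries. MT1X kept the order of these libraries but not the size, with 12.4%, 27.0%, 60.3% and 46.7%. SOS1 did not keep it, with -27.6%, 5.10%, 63.1% and 71.9%, so that DMSO replicate 1 lay outside the range of the replicate 3 libraries. What set these libraries apart was not tested, and each result below is given for the 3 replicates and for replicate 3 alone.

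Of 12738 genes tested, 5 passed an adjusted p under 0.05 (0.0393% of the genes), 4 higher (0.0314%) and 1 lower (0.00785%) with Sorafenib. The 4 up-regulated genes were the metallothioneins MT2A, MT1F, MT1E and MT1X, which rose 2.10- to 3.18-fold, and the down-regulated gene was SOS1, which encodes the exchange factor that loads RAS with GTP and which fell to a level 2.40-fold lower. The test was the quasi-likelihood F test of edgeR with Benjamini-Hochberg adjustment over all genes, on the 12 libraries of 6 h. An unadjusted p under 0.05 was met by 200 genes that were higher (1.57%) and 281 that were lower (2.21%), and the 3 Sorafenib libraries lay wholly above the 3 DMSO libraries for 777 genes (6.1%) and wholly below for 854 (6.7%). The calls depended on single libraries: no gene was called without DMSO replicate 1, DMSO replicate 3 or Sorafenib replicate 3, 1 gene (SOS1) without Sorafenib replicate 1, and 17 without DMSO replicate 2. Fitted on the 6 IC libraries alone, no gene was called and the smallest adjusted p, shared by several genes, was 0.0505.

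The genes with the smallest p in IC had the same sign in I200c. Both contrasts came from the same fit with a shared estimate of the spread, so their p-values are not independent. In I200c, 291 genes were called (2.28%), 116 higher (0.911%) and 175 lower (1.37%), a count that was 146 without I200c Sorafenib replicate 1, 134 without I200c Sorafenib replicate 2 and 495 without I200c DMSO replicate 2. All 50 genes with the smallest p in IC had the same sign in I200c and 44 of them were called there, as were 68 of the top 100, again with all 100 of the same sign; over all genes tested the share of the same sign was 64.5%. The median size of the log2 fold change of the top 50 was 1.00 in IC, 1.58 in replicate 3 alone and 1.48 in I200c, and over all genes tested it was 0.18, 0.30 and 0.27. It was larger in replicate 3 than over 3 replicates for 46 of the top 50 and for 7295 of all 12738 genes. Replicate 3 is part of the contrast that ranked the top 50, so the count of 46 is not a separate result. Conversely, 279 of the 291 genes called in I200c had the same sign in IC, with a median size of 0.52 in IC, 0.83 in replicate 3 and 1.15 in I200c. These genes were chosen for their change in I200c, which favours a larger size there. The interaction, which tests whether Sorafenib acted differently in I200c than in IC, called 0 genes (0%) in edgeR at an adjusted p under 0.05 and had 413 genes at an unadjusted p under 0.05; DESeq2 called 1. It called 8 genes without IC DMSO replicate 3, 1 without IC Sorafenib replicate 3 and 1 without I200c Sorafenib replicate 2. In IC, Sorafenib against DMSO was also fitted on replicate 3 alone, 1 library against 1, which is a description and not a test. Replicate 3 was singled out for its wide gap in these same data, so its calls partly follow from that choice. Its spread came from I200c, yet IC positions varied more, 0.183 to 0.476 against -0.008 to 0.005 with DMSO. The choice of the 291 genes favours a narrow spread in I200c. With replicate 3 alone in both IC groups, and the spread taken from the I200c libraries on the assumption that IC libraries vary alike, 12 genes were called (0.0942%): MT1G, GADD45B, MT1B, MT1X, MT2A, MT1F, MT1M, MT1E, CYP1A1, IGFBP1, SOS1 and IER3.

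**Figure D2:**
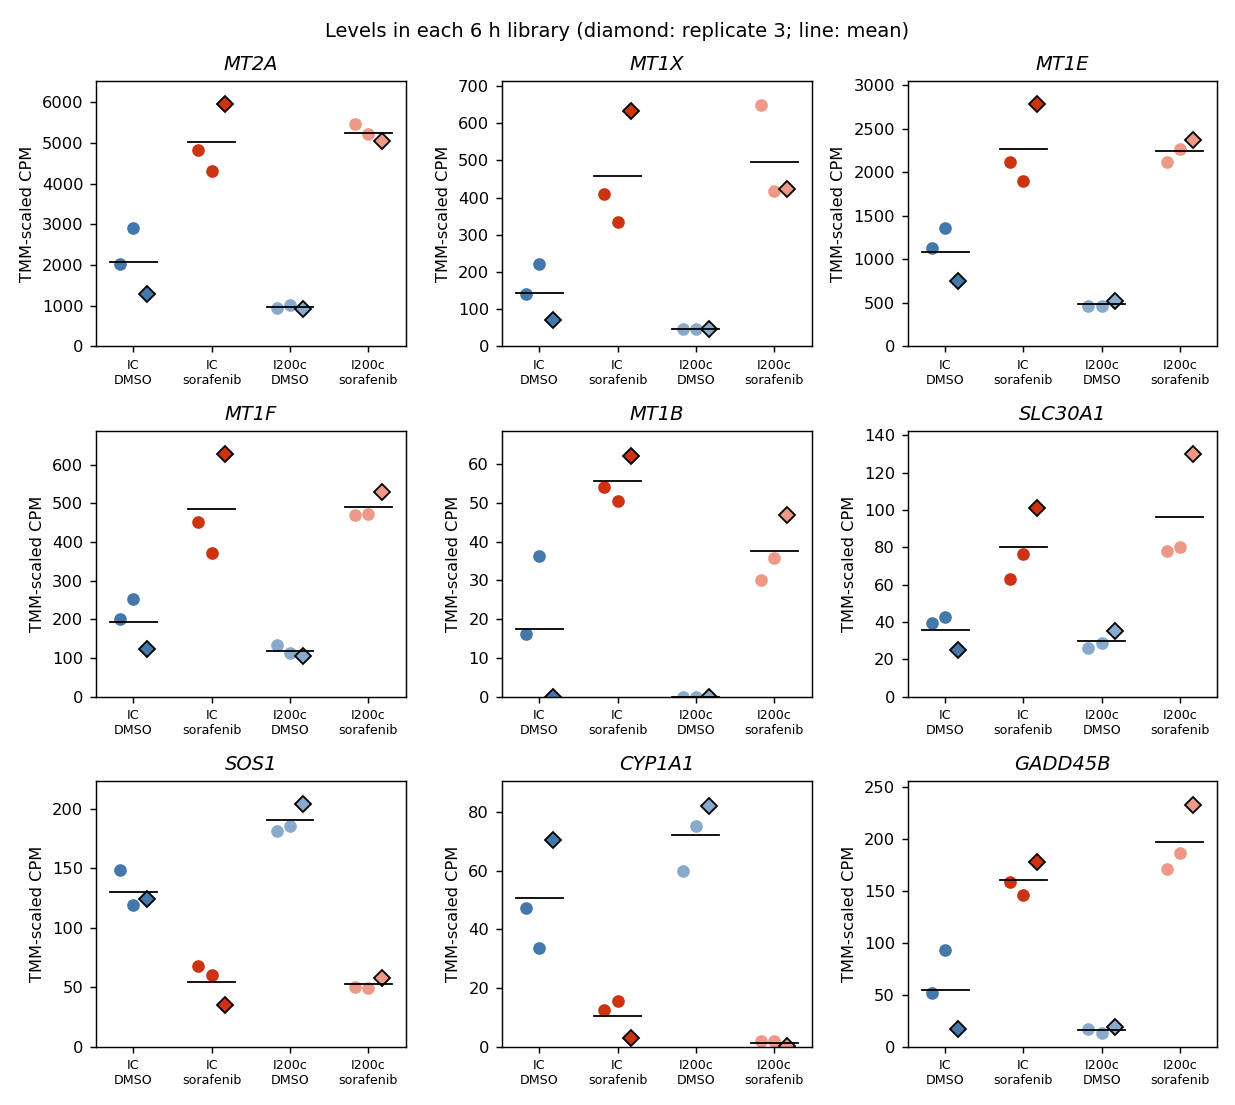
TMM-scaled CPM (vertical axes, starting at 0) of 9 genes in each library of the 4 groups at 6 h, with group means as lines and replicate 3 as diamonds. In IC the Sorafenib and DMSO libraries do not overlap for any of the 9, which the rank rule required of SLC30A1, CYP1A1 and GADD45B. Replicate 3 gives the widest gap for all but SOS1 on the DMSO side, where replicate 1 was highest.

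The metallothionein genes lie together on chromosome 16 (GRCh38), and the promoters of the members that moved together are shown because they can be searched for the metal response element. RefSeq (GRCh38.p14) windows of 250 bases before to 50 after a start were searched on both strands for the core letters TGCACNC and TGCGCNC, which differ in the fourth letter, so that no site matches both. The 150 bases before the start are printed 5′ to 3′ on the gene's strand, with cores in capitals, for MT1X (chr16:56682320-56682469, + strand), MT2A (chr16:56608434-56608583, + strand), MT1B (chr16:56651736-56651885, + strand) and SLC30A1 (chr1:211579162-211579311, - strand).
MT1X: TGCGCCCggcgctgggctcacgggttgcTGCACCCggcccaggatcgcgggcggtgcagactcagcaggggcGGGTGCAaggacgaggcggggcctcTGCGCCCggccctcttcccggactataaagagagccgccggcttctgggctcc
MT2A: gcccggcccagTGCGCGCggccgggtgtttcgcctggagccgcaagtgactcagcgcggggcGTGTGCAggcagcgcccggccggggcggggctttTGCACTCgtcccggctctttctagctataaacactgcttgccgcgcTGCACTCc
MT1B: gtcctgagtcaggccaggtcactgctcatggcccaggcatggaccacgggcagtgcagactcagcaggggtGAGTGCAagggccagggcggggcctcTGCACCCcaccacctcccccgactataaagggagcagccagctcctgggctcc
SLC30A1: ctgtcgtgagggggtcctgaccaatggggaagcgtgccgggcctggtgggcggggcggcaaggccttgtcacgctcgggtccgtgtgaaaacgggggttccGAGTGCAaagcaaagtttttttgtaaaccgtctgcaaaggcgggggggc

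In the whole windows, MT2A held 8 cores, MT1H 8, MT1X 4, MT1B 3 and SLC30A1 2. Of all 35116 windows, 29.6% held at least 1 core, 8.6% at least 2 and 0.601% at least 4. Among 22 other called and ranked genes that matched the table, 13 held at least 1 core and 2 held 2, taking the richest window of a gene with several starts. The shares over all windows count single windows and not genes, so these counts of genes are not on the same measure. Of the 11 members of the metallothionein list 5 matched the table. A match is a run of letters and not a measured binding site.

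Nearly all members of the metallothionein and zinc export list were higher with Sorafenib. Of its 11 members 10 were tested: 4 were called, 9 had an unadjusted p under 0.05 and were higher, and none was lower, against 1.57% of all genes that were higher. Its median log2 fold change was 1.42 in IC, 2.71 in replicate 3 alone (2.28 with MT1B and MT1H, at 0 counts in DMSO replicate 3, set to their bounds) and 2.85 in I200c, where 9 were called higher; over all genes tested the medians were 0.00 in IC, 0.01 in replicate 3 and 0.00 in I200c. The list was chosen with earlier results of these data known.

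MT2A (chromosome 16, 56608584 to 56609497), the most abundant metallothionein here, stood at 2020, 2915 and 1288 CPM with DMSO and at 4832, 4313 and 5958 CPM with Sorafenib in replicates 1 to 3. The groups did not overlap, and replicate 3 was the lowest with DMSO and the highest with Sorafenib. The log2 fold change was 1.28 (SE 0.20, adjusted p = 0.0193, edgeR quasi-likelihood test), against 2.21 in replicate 3 and 2.44 in I200c (adjusted p = 8.59e-07).

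MT1X (chromosome 16, 56682470 to 56684196) stood at 140, 223 and 70.2 CPM with DMSO and at 410, 333 and 634 CPM with Sorafenib. It had the largest fold of the called genes, with a log2 fold change of 1.67 (SE 0.29, adjusted p = 0.0385), 3.17 in replicate 3 and 3.40 in I200c. MT1F (chromosome 16, 56657731 to 56660698) stood at 202, 252 and 123 CPM with DMSO and 453, 373 and 628 CPM with Sorafenib, a log2 fold change of 1.33 (SE 0.21, adjusted p = 0.0193), with 2.35 in replicate 3 and 2.07 in I200c. MT1E (chromosome 16, 56625475 to 56627112) stood at 1132, 1360 and 756 CPM with DMSO and at 2117, 1905 and 2789 CPM with Sorafenib, a log2 fold change of 1.07 (SE 0.18, adjusted p = 0.0233), with 1.88 in replicate 3 and 2.22 in I200c. In all 4 called metallothioneins DMSO replicate 3 was the lowest library and DMSO replicate 2 the highest of the DMSO group, while Sorafenib replicate 2 was the lowest and Sorafenib replicate 3 the highest of the Sorafenib group. The mature transcripts of this family are alike, so reads can be split between its members by the counting, and values of single members are less certain than the family's direction.

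The remaining members did not pass the adjusted test in the 3 against 3 comparison. MT1G stood at 672, 1073 and 307 CPM with DMSO and 1816, 1588 and 2577 CPM with Sorafenib, a log2 fold change of 1.54 (SE 0.28, adjusted p = 0.0542), with 3.07 in replicate 3 and 3.25 in I200c. MT1M stood at 21.6, 32.5 and 0.999 CPM with DMSO and 57.2, 59.3 and 51.5 CPM with Sorafenib, which were close to each other while the DMSO libraries spread widely. MT1B stood at 54.2, 50.6 and 62.1 CPM with Sorafenib, and in replicate 3, with 0 counts in DMSO, it was at least 82.9-fold higher against a limit of 3 counts in that library. MT1A was at 12.7 to 14.8 CPM with DMSO and 17.1 to 25.7 CPM with Sorafenib, a log2 fold change of 0.58. SLC30A1, the zinc exporter of the plasma membrane, stood at 39.6, 42.4 and 25.0 CPM with DMSO and 62.9, 76.3 and 101 CPM with Sorafenib, a log2 fold change of 1.17 (SE 0.24, adjusted p = 0.0993), with 2.01 in replicate 3 and 1.67 in I200c. MT1L was not tested, and MT1H did not exceed 2.85 CPM in any IC library.

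SOS1 (chromosome 2, 38962206 to 39124345, minus strand) had the smallest p of all genes. It stood at 148, 119 and 124 CPM with DMSO and at 68.1, 60.3 and 35.5 CPM with Sorafenib, so the highest Sorafenib library lay far below the lowest DMSO library. The log2 fold change was -1.26 (SE 0.19, adjusted p = 0.0193, edgeR), -1.79 in replicate 3 and -1.86 in I200c (adjusted p = 7.83e-06). Among 26 tested components of the RAS, RAF, MEK and ERK cascade, 2 were lower at an unadjusted p under 0.05 (SOS1 and the receptor ERBB3, with a log2 fold change of -0.35) and none was higher, where 2.21% of all genes were lower; the median was -0.08. Of 15 kinases that Sorafenib is known to bind, 7 were tested, with a median log2 fold change of 0.02. PDGFRB, a receptor of platelet-derived growth factor, was the only one of the 7 tested with an unadjusted p under 0.05, and it did not pass the adjusted test. It stood at 1.40, 1.41 and 3.25 CPM with DMSO and at 0, 1.16 and 0.143 CPM with Sorafenib, so the groups did not overlap but 2 Sorafenib libraries were under the limit of 3 counts. In I200c it fell (adjusted p = 0.0377), from 2.09 to 6.12 CPM with DMSO to at most 0.247 CPM with Sorafenib. KDR, FLT1, FLT3, FLT4, PDGFRA, KIT, RET and DDR2 were not tested, as too few reads fell on them. FGFR1 stood at 90.3 to 134 CPM with DMSO and at 75.5 to 93.7 CPM with Sorafenib, and DDR1 at 81.9 to 88.1 CPM and 89.7 to 103 CPM, neither past the adjusted test.

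Some of the transcripts that record ERK activity were lower, none of them past the adjusted test. Of 17 tested members of the ERK feedback list, 5 were lower at an unadjusted p under 0.05 (DUSP6, SPRED1, SPRY4, IER3 and FOSL1) and none was higher, against 2.21% lower and 1.57% higher among all genes, shares that stand beside every list count below. The median log2 fold change was -0.34 in IC, -0.55 in replicate 3 and -0.70 in I200c. DUSP6, the ERK phosphatase, stood at 50.0, 47.8 and 78.4 CPM with DMSO and 37.0, 37.0 and 30.9 CPM with Sorafenib, a log2 fold change of -0.75 (SE 0.20), with -1.33 in replicate 3 and -1.27 in I200c, where it fell (adjusted p = 0.00144). IER3, an early response gene that ERK induces, stood at 505, 547 and 971 CPM with DMSO and 449, 419 and 281 CPM with Sorafenib; its log2 difference was -0.82 over 3 replicates and -1.79 in replicate 3. For both genes the DMSO libraries 1 and 2 lay nearer to Sorafenib than DMSO replicate 3 did. SPRED1, an inhibitor of RAF activation, stood at 23.2, 13.4 and 23.7 CPM with DMSO and 9.95, 10.7 and 7.98 CPM with Sorafenib. SPRY4, a SPROUTY protein, stood at 5.99, 5.89 and 13.5 CPM with DMSO and 4.09, 2.48 and 1.43 CPM with Sorafenib. AREG, a ligand of the EGF receptor that the rank rule named, stood at 106, 80.8 and 150 CPM with DMSO and 66.1, 61.8 and 63.4 CPM with Sorafenib, a log2 fold change of -0.81.

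Immediate early genes, which respond to signals without new protein synthesis, split into both directions. Of 19 tested, 3 were higher (JUNB, JUN and CCN1) and 3 lower (IER3, EGR1 and FOSL1) at an unadjusted p under 0.05. IER3 and FOSL1 are the same genes already counted in the ERK feedback list. The median log2 fold change of the 19 was 0.04 in IC and -0.17 in replicate 3. JUNB, an AP-1 subunit, stood at 37.2, 51.3 and 24.5 CPM with DMSO and 74.8, 80.6 and 88.1 CPM with Sorafenib, a log2 fold change of 1.11 (SE 0.21, adjusted p = 0.0564), with 1.84 in replicate 3 and 1.35 in I200c. JUN was at 105 to 175 CPM with DMSO and at 224 to 236 CPM with Sorafenib. EGR1, a zinc finger factor induced by ERK, stood at 11.4, 11.8 and 24.5 CPM with DMSO and 7.46, 5.29 and 1.85 CPM with Sorafenib, a log2 difference of -1.71 over 3 replicates and -3.53 in replicate 3. AP-1 subunits lay on both sides of 0, since FOSL1, another of them, had a log2 difference of -1.02. JUNB, JUN and EGR1 were called in I200c, with the signs they had in IC.

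**Figure D3:**
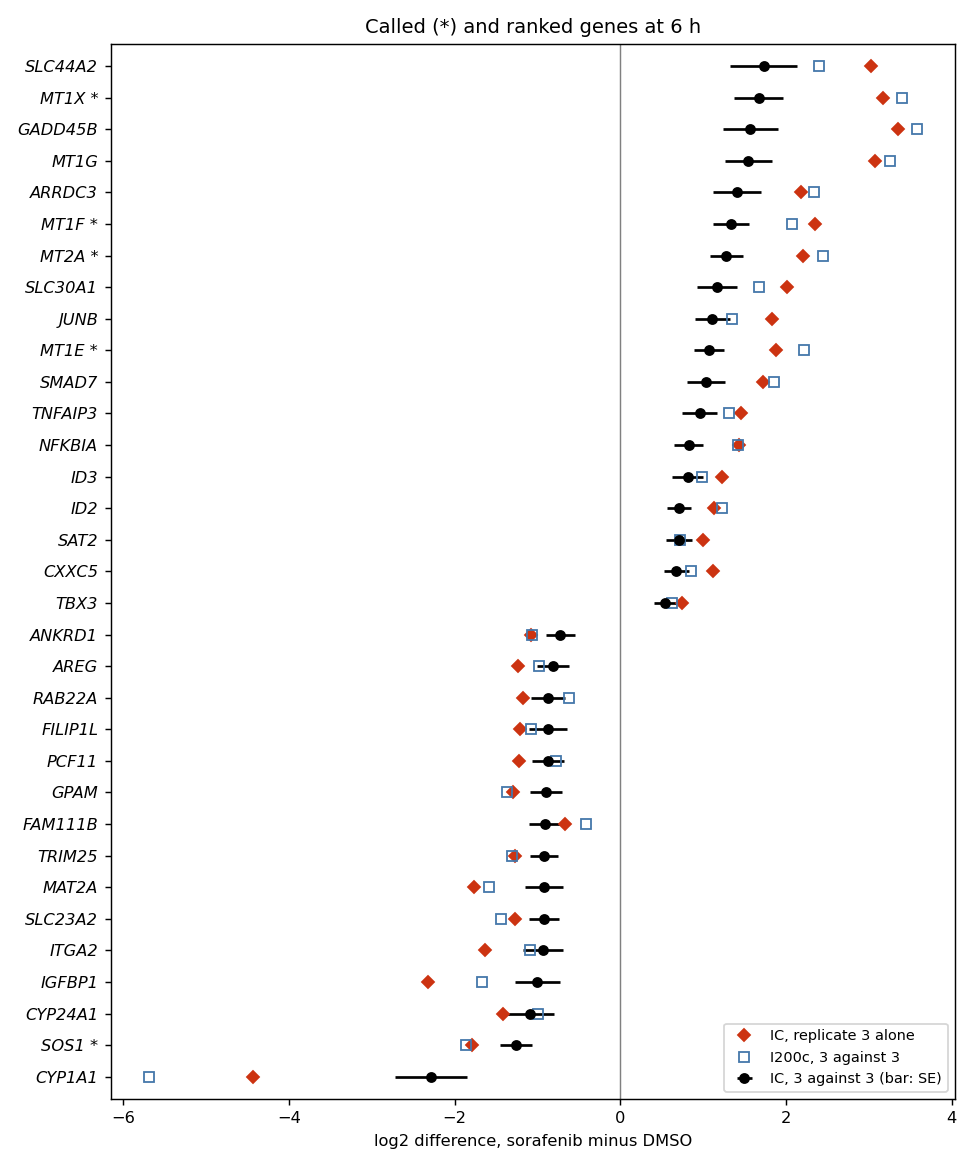
Log2 difference between Sorafenib and DMSO (horizontal axis) for the 5 called genes (marked with an asterisk) and the 28 ranked genes, in IC over 3 replicates with the SE as bars, in IC replicate 3 alone and in I200c. For 32 of the 33 genes the replicate 3 difference is larger than that over 3 replicates, FAM111B being the exception, against 7295 of all 12738 genes. The ranked genes had to have the same sign in replicate 3 and groups that did not overlap, so these 32 are not a separate result. All 33 have the same sign in I200c.

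CYP1A1, the monooxygenase that the aryl hydrocarbon receptor induces, had the largest difference among the ranked genes. It stood at 47.4, 33.7 and 70.7 CPM with DMSO and at 12.6, 15.7 and 2.99 CPM with Sorafenib. Groups that did not overlap were a condition of the rank rule. The log2 fold change was -2.29 (SE 0.43, adjusted p = 0.0564, edgeR), -4.43 in replicate 3 and -5.69 in I200c, where it fell (adjusted p = 2.10e-06). Of 8 tested genes of the aryl hydrocarbon receptor list, 3 had a log2 difference above 0. CYP1A1 was the only one lower at an unadjusted p under 0.05, and NFE2L2 was higher with a log2 fold change of 0.36. The list median was -0.07 in IC and 0.10 in replicate 3. Of 14 tested drug metabolism enzymes none but CYP1A1 had an unadjusted p under 0.05.

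NFKBIA and TNFAIP3, which restrain NF-kappaB, stood among the ranked genes that were higher. NFKBIA, the inhibitor that holds NF-kappaB in the cytoplasm and is itself an NF-kappaB target, stood at 356, 499 and 282 CPM with DMSO and 632, 620 and 762 CPM with Sorafenib, a log2 fold change of 0.82 (SE 0.18, adjusted p = 0.108), with 1.43 in replicate 3. TNFAIP3, the deubiquitinase A20 that limits NF-kappaB, stood at 31.8, 36.7 and 24.0 CPM with DMSO and 55.8, 57.2 and 66.4 CPM with Sorafenib, a log2 difference of 0.95. In a list of NF-kappaB targets drawn up after values were seen, 4 of 14 tested were higher (NFKBIA, TNFAIP3, IRF1 and BCL3) and 2 lower (the chemokines CCL20 and CXCL8) at an unadjusted p under 0.05. CCL20 stood at 17.6, 8.01 and 43.2 CPM with DMSO and 3.02, 7.93 and 7.41 CPM with Sorafenib, and CXCL8 did not exceed 7.99 CPM. NFKBIA and TNFAIP3 thus lay on the other side of 0 from these 2 chemokines, and the list median was 0.18. As the list was drawn up with the values known, this split is not a separate result.

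Targets of bone morphogenetic protein (BMP) and transforming growth factor beta, secreted factors that signal through SMAD proteins, were also among the higher ranks. GADD45B, a stress sensor that SMAD and NF-kappaB signals induce, stood at 52.1, 93.0 and 17.2 CPM with DMSO and at 158, 146 and 178 CPM with Sorafenib. Its log2 fold change was 1.57 (SE 0.33, adjusted p = 0.108), with 3.35 in replicate 3 and 3.58 in I200c (adjusted p = 5.47e-06), and DMSO replicate 2 lay far above DMSO replicate 3. ID2, which blocks basic helix-loop-helix factors, stood at 588, 750 and 514 CPM with DMSO and 958, 945 and 1123 CPM with Sorafenib, a log2 fold change of 0.71 (SE 0.15, adjusted p = 0.0993). ID3, of the same family, stood at 287, 280 and 251 CPM with DMSO and 403, 444 and 586 CPM with Sorafenib. SMAD7, the inhibitory SMAD, stood at 18.8, 21.7 and 12.7 CPM with DMSO and 33.8, 32.4 and 42.6 CPM with Sorafenib, a log2 difference of 1.03 in IC and 1.85 in I200c. In a list of 14 tested targets drawn up after values were seen, these 4 and HAMP, the iron hormone hepcidin, were higher at an unadjusted p under 0.05, 1 was lower, and the median was 0.41.

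Wnt targets and hepatocyte transcription factors held a few members at high rank. TBX3, a repressor that beta-catenin induces in liver cells, stood at 149, 154 and 139 CPM with DMSO and 195, 212 and 232 CPM with Sorafenib, a log2 fold change of 0.54 (SE 0.13, adjusted p = 0.214) that was 0.74 in replicate 3 and 0.63 in I200c. AXIN2, a feedback inhibitor of Wnt signalling, was at 80.7, 112 and 44.5 CPM with DMSO and 161, 142 and 151 CPM with Sorafenib, and RNF43, which removes Wnt receptors, was at 76.3 to 81.2 CPM and 96.7 to 140 CPM. Both came from a list of 10 tested Wnt targets drawn up after values were seen, of which 3 were higher and none lower at an unadjusted p under 0.05, with a median of 0.03. FOXA2, a pioneer factor of hepatocytes, was at 118, 123 and 90.4 CPM with DMSO and 159, 158 and 188 CPM with Sorafenib; of 22 tested hepatocyte transcription factors, it and TBX3 alone had an unadjusted p under 0.05, and HNF4A was at 176 to 216 CPM with DMSO and 140 to 195 CPM with Sorafenib. Among 31 tested hepatocyte secreted proteins 1 was higher (HPX), none lower, and the median log2 fold change was 0.11.

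**Figure D4:**
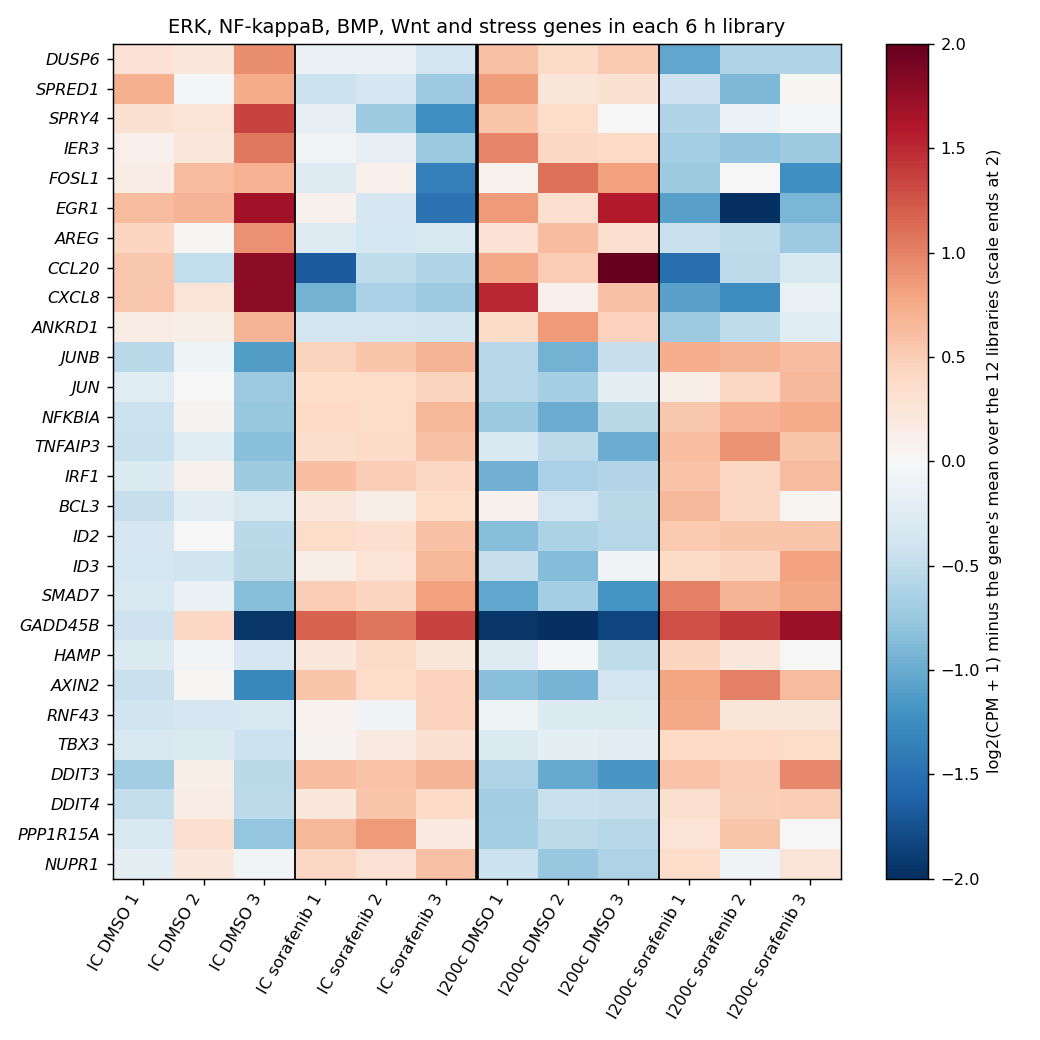
Level of 28 genes of the ERK, immediate early, NF-kappaB, BMP, Wnt and stress lists in each of the 12 libraries at 6 h, as log2(CPM + 1) minus the gene's mean over the 12 libraries (red above, blue below, colour scale from -2 to 2). DMSO replicate 3 of IC resembles the I200c DMSO libraries most, while DMSO replicate 2 is pale for many genes, for example GADD45B at 93.0 CPM against 17.2 CPM in replicate 3.

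Among the other ranked genes that were higher, ARRDC3, an arrestin-like adaptor, stood at 19.0, 23.1 and 10.2 CPM with DMSO and 43.7, 48.1 and 47.3 CPM with Sorafenib, a log2 difference of 1.41. SLC44A2, a choline transporter, stood at 5.99, 9.18 and 3.50 CPM with DMSO and 19.4, 12.1 and 30.5 CPM with Sorafenib, the largest log2 difference of the higher ranked genes at 1.73 (SE 0.41). SAT2, an acetyltransferase, and CXXC5, a zinc finger protein, had log2 differences of 0.71 and 0.68. All 18 called or ranked genes that were higher in IC were also called in I200c.

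Among the lower ranks, TRIM25, a ubiquitin ligase, came next to the threshold. It stood at 93.3, 80.3 and 101 CPM with DMSO and 48.7, 55.0 and 41.8 CPM with Sorafenib, a log2 fold change of -0.92 (SE 0.17, adjusted p = 0.0544), with -1.27 in replicate 3 and -1.31 in I200c. SLC23A2, a vitamin C transporter, stood at 91.9, 78.2 and 119 CPM with DMSO and 49.4, 53.5 and 49.2 CPM with Sorafenib. GPAM, which starts triglyceride synthesis, stood at 154, 132 and 112 CPM with DMSO and 81.6, 87.2 and 45.5 CPM with Sorafenib. The groups of these 3 genes did not overlap, which the rank rule required. MAT2A, which makes S-adenosylmethionine, was at 63.7, 82.4 and 117 CPM with DMSO and 53.1, 51.7 and 34.4 CPM with Sorafenib, and its log2 difference grew from -0.92 over 3 replicates to -1.76 in replicate 3. IGFBP1, an insulin-repressed secreted protein of hepatocytes, was at 78.9, 74.6 and 105 CPM with DMSO and 52.1, 56.7 and 20.7 CPM with Sorafenib, with a log2 difference of -2.32 in replicate 3 and -1.67 in I200c. In both genes Sorafenib replicate 3 was the lowest library and DMSO replicate 3 the highest.

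ANKRD1, a YAP target, was at 470, 460 and 682 CPM with DMSO and 328, 327 and 322 CPM with Sorafenib, a log2 difference of -0.72. ITGA2, an integrin subunit that binds collagen, was at 44.3 to 54.1 CPM with DMSO and 15.8 to 34.5 CPM with Sorafenib, and FILIP1L was at 49.4 to 62.1 CPM and 23.7 to 38.7 CPM. YAP targets as a list went both ways, with 4 of 19 tested higher, 3 lower and a median of -0.17. CYP24A1, which degrades active vitamin D, was at 20.5 to 43.7 CPM with DMSO and 12.8 to 16.3 CPM with Sorafenib. PCF11, a factor of transcript 3′ end formation, and the GTPase RAB22A had log2 differences of -0.87 each, against -0.78 and -0.62 in I200c. FAM111B was the one ranked gene with a smaller difference in replicate 3 (-0.67) than over 3 replicates (-0.91), and it was at -0.41 in I200c. FAM111B, RAB22A and CYP24A1 were the 3 ranked genes not called in I200c.

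No member of the stress lists was called in IC. Of 26 tested genes of the integrated stress response, by which cells slow translation and induce ATF4 targets, 4 were higher (DDIT3, DDIT4, PPP1R15A and NUPR1) and 1 lower (SLC7A5) at an unadjusted p under 0.05, with a median of 0.11 in IC, 0.06 in replicate 3 and 0.07 in I200c. DDIT3, the factor CHOP, stood at 11.8, 21.4 and 13.2 CPM with DMSO and 30.6, 29.7 and 31.9 CPM with Sorafenib, a log2 difference of 0.99 in IC and 1.70 in I200c, where it rose (adjusted p = 0.000627). DDIT4, an inhibitor of mTORC1, was at 23.5 to 37.9 CPM with DMSO and 39.6 to 50.9 CPM with Sorafenib. None of 22 tested endoplasmic reticulum chaperone and unfolded protein response genes had an unadjusted p under 0.05 in either direction, and their log2 differences ran from -0.42 to 0.22. HSPA8, the constitutive HSP70, was at 206 to 255 CPM with DMSO and 135 to 170 CPM with Sorafenib and was the only one of 21 heat shock genes with an unadjusted p under 0.05. Of 24 tested NRF2 targets, NFE2L2 was higher and TXNRD1 lower at that level, and of 16 ferroptosis and iron genes HAMP was higher.

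No member of the growth, survival and metabolism lists was called in IC. Medians of the log2 differences were -0.14 over 34 mitosis genes, -0.13 over 37 S phase genes and -0.21 over 12 cell cycle entry genes, with 1, 2 and 1 lower at an unadjusted p under 0.05 and none higher. Most members of the 3 lists were below 0, with 7, 11 and 3 above it, where 6398 of all 12738 genes were above. The Sorafenib libraries lay wholly below the DMSO libraries for 5 mitosis, 3 S phase and 1 cell cycle entry genes, against 6.7% of all genes. Of 24 p53 targets 2 were higher and 1, the p53 ligase MDM2, was lower at an unadjusted p under 0.05. Their median was -0.12 in IC, -0.07 in replicate 3 and -0.30 in I200c. There 5 were called lower and 0 higher, against 1.37% and 0.911% of all genes. MDM2 stood at 242, 217 and 252 CPM with DMSO and 176, 182 and 158 CPM with Sorafenib, and in I200c it fell (log2 fold change -0.83, adjusted p = 0.00192, edgeR). In the BCL2 family of 15, the death promoters BCL2L11 and BBC3 were higher at an unadjusted p under 0.05. BCL2L11 was at 17.5 to 26.6 CPM with DMSO and 28.1 to 39.8 CPM with Sorafenib. None of 27 autophagy and lysosome genes and none of 20 glycolysis genes had an unadjusted p under 0.05. Of 23 cholesterol synthesis genes 2 were lower, HSD17B7 among them, and GPAM was the only one of 15 fatty acid synthesis genes at that level. Of 17 hypoxia genes 2 were higher (ADM and DDIT4) and 1 lower, of 11 genes of glucose sensing 1 was higher (FOXO3) and 2 lower (IGFBP1 and TXNIP), and of 28 amino acid transporters and tRNA synthetases 2 were lower. None of 75 nuclear genes of the respiratory chain passed an unadjusted p under 0.05, and 51 had a log2 difference above 0, with a median of 0.05. Of the 15 genes encoded in mitochondrial DNA 1 was higher (MT-CO1), with a median of -0.10.

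**Figure D5:**
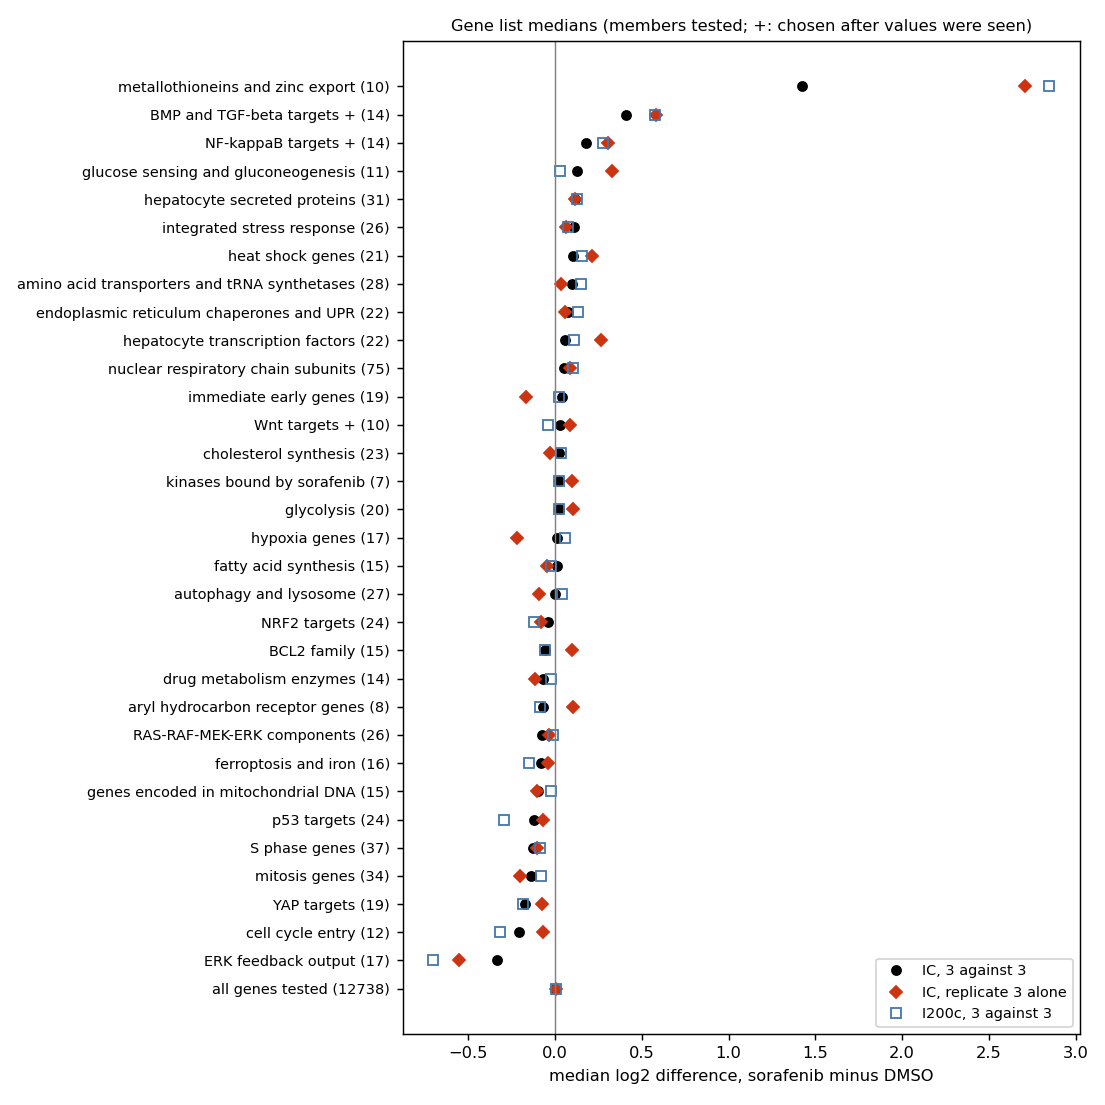
Median log2 difference between Sorafenib and DMSO (horizontal axis) for each gene list, with the number of members tested in brackets, in IC over 3 replicates, IC replicate 3 alone and I200c; lists marked + were chosen after values were seen. The marker lists of cell types, that of hepatocytes included, are not drawn. Of the lists drawn, only the metallothionein list lies beyond 1, at 1.42, 2.71 and 2.85, and the ERK feedback list lies lowest, at -0.34, -0.55 and -0.70.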

How the data were processed

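Per the labels and the methods of the study, the authors sequenced QuantSeq 3′ FWD libraries for 65 cycles, aligned them with STAR to GRCh38 and counted reads per gene with HTSeq; versions, strand setting and molecular identifiers are not given in the sources used here. The deposited raw counts were used as they stand; a normalised table and the authors' own comparisons were not used. Of the rows, 92 named no gene, held 3 counts in all and were left out. Total counts per IC library were 3940000 to 7200000.

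All 12 libraries of 6 h were fitted together with edgeR 4.0.16 (R 4.3.3): filterByExpr, TMM, 1 coefficient per group, quasi-likelihood F test (two-sided), Benjamini-Hochberg over 12738 genes, threshold 0.05. The common biological coefficient of variation was 0.241. An SE is the log2 fold change divided by the square root of F. Levels are TMM-scaled CPM; replicate 3 differences use log2 CPM with a prior count of 2. Gene positions and symbols came from GENCODE release 44, promoters from RefSeq. The scripts were tested on simulated data.

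The members and gene lists were chosen with earlier results of these data known. Named genes were those called, the 14 higher and 14 lower with the smallest p among genes with a symbol, at least 10 CPM in a group, groups that did not overlap and the same sign in replicate 3, up to 4 members of each list with the smallest p, and CYP1A1 and MT1B; further genes of a list were named after their values were seen where a count of 5 or fewer was spelled out or the gene belonged to the metallothioneins or to a list drawn up later. Lists are described by counts and medians, with no test. Some members of the lists are counted in them but not reported here by name. Alternatives were DESeq2, other scalings and filters, the IC libraries alone, a replicate block, leaving out each library, and replicate 3 alone.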

Additional observations from a re-analysis of the deposited data

How the results depend on the processing

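The number of genes called in IC, 5 as reported, was 34 with DESeq2, 62 with no filter on low counts and 0 with only the 6 IC libraries. It was 2 with the replicate number as a block, and 0 to 17 when each IC library was left out in turn. It was 5 with DESeq2 size factors or total counts and 6 with a filter of 5 CPM. At an unadjusted p under 0.05 the fit on the 6 IC libraries had 790 genes. All 5 genes were among those called by DESeq2 and without the filter. For I200c, 291 genes became 482 with DESeq2, 519 with no filter and 134 to 495 when each of its libraries was left out. The interaction, with 0 calls, had 1 in DESeq2, 19 with no filter and 0 to 8 over the libraries left out. The other alternatives kept these counts within 1.5 times, or at 0, leaving aside replicate 3 alone, a description of 1 library against 1. The cause of these shifts was not tested.

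For samples with the same replicate number, the correlation of their deviations from the group means was -0.0579 to 0.219 over 12 pairs. The highest was between the IC replicate 3 libraries, while IC DMSO replicate 3 was at -0.164 and -0.0947 with IC Sorafenib replicates 1 and 2. Replicate 3 of the I200c groups was at 0.158. What the replicate 3 libraries shared was not tested. Samples did not all correlate best with their own number. The block left SOS1 and MT2A called in IC and gave 310 calls in I200c. Of 86 genes followed, the 5 called genes lost the adjusted call 27 times in all, and only the markers HBB and ACTA2, neither called, changed sign: ACTA2 was at -0.093 in replicate 3 and from -0.012 to 0.25, and HBB from -2.44 to 1.37, over the libraries left out. Total counts in place of TMM moved the median of all genes to -0.03 and the genes at an unadjusted p under 0.05 from 200 higher and 281 lower to 163 and 322. At these depths genes under about 0.749 CPM could not be measured.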
